A study of Mus musculus with 4 samples.

Results

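The ISG15 conjugation machinery was followed through 5 genes of the deposited gene table, Isg15, Uba7, Ube2l6, Herc6 and Usp18, which were chosen by their names from 39179 genes. All 5 carried their symbol in the table and all 5 had enough reads to be tested. The cells were mouse embryonic fibroblasts (MEFs) of the BALB/c strain, primary cells that make connective tissue, and were infected at passage 2. The GFP control group (2 libraries, I and II) received a lentivirus with green fluorescent protein, and the SON group (2 libraries, I and II) received the lentivirus of Stella (encoded by Dppa3), Oct4 (encoded by Pou5f1) and Nanos2. Cells of both groups went through puromycin at 2 µg/ml, begun 72 h after infection and kept for 4 days, and were then grown for 21 days without the drug, so the control is an infected and selected culture and not an untouched one. Which promoter drives the delivered genes was not given in the sources used here. Whether the libraries within a group came from separate cultures is left unsaid by the labels, so p-values measure only the spread between these libraries. The comparison asks how far the genes of this pathway differed in fibroblasts that carried the 3 factors.

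ISG15 is a ubiquitin-like protein that interferons induce and that is joined to other proteins through an enzyme cascade like that of ubiquitin. Uba7 is the activating enzyme (E1), Ube2l6 carries the activated protein (E2), and Herc6 is the main ligase (E3) in the mouse, which lacks the Herc5 gene used in human cells. Usp18 is the protease that takes ISG15 off again, and apart from that it damps the type I interferon receptor. All 5 genes are themselves known to be induced by interferon.

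Promoter letters are shown first because all 5 genes measured lower in SON, and the best known feature they could share is the interferon-stimulated response element (ISRE). Of the 5 genes, 4 matched the RefSeq promoter table (GRCm38.p6), and windows reached from 250 bases before to 50 bases after the start of the gene. Capitals mark each match, on either strand, to the longer ISRE-type motif (GAAA, any 2 bases, GAAA) or to its shorter core AANNGAAA, which lies within it. The Isg15 stretch (chr4:156200819-156200968, minus strand), the Herc6 stretch (chr6:57580842-57580991, plus strand) and the Ube2l6 stretch (chr2:84798678-84798827, plus strand) hold the 150 bases before the RefSeq start. For Uba7 the 30 bases around its match are shown (chr9:107975529-107975558, plus strand).
Isg15: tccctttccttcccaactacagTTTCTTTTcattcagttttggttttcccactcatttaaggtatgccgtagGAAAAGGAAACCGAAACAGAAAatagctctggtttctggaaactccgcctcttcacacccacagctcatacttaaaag
Uba7: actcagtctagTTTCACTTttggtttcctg
Herc6: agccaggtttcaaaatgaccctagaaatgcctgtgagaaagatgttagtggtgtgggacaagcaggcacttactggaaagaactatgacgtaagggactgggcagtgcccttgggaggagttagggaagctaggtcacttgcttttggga
Ube2l6: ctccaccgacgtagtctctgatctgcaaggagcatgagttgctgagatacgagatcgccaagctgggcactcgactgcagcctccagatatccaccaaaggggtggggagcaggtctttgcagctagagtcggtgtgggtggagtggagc

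In the Isg15 window 3 overlapping matches to the longer motif ran from base -78 to base -57, counted from the start of the gene. Uba7 held the core alone, on the opposite strand at bases -27 to -20 from its RefSeq start, and GENCODE places the start of Uba7 62 bases further upstream. The core alone also matched in Isg15, on the opposite strand at bases -128 to -121. The Herc6 and Ube2l6 windows held neither form of these letters. Over all 32851 promoter windows of the table, 3.44% held the longer motif and 23.9% the core. Among 35 windows of 31 other interferon-stimulated genes listed for comparison, the shares were 51.4% and 77.1%. A match is a description of the letters only.

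The delivered genes matched the labels: Dppa3, Pou5f1 and Nanos2 had 0 or 1 read in each GFP control library, and between 295 and 449 normalized counts in the SON libraries (limma adjusted p = 0.0326, 0.0311 and 0.0326). Total reads in genes were 28924700 and 37097571 in the GFP control, against 17365551 and 14680865 in SON. All 12 fibroblast markers were read, with mean values from 812 to 164980 normalized counts. Markers of lymphocytes were near 0, with a mean of at most 3.11 for any of 6 genes. Over 12 markers of macrophages, cells that also respond to interferon, the summed level was 1460 and 1533 in the GFP control, against 477 in SON I and 1316 in SON II.

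Values below are normalized counts, the reads of a gene divided by 1 size factor per library, and log2 differences are SON minus GFP control on log2 of the value plus 1. All 5 ISG15 genes measured lower in both SON libraries than in either GFP control library, where 23.7% of the 15283 genes tested were separated in this direction. Their log2 differences ran from -2.20 for Isg15 to -0.96 for Herc6, with a median of -1.74 against -0.01 over all genes tested. No gene of the 5 passed limma over all genes (0 of 5, where 0.0196% of the genes tested were called lower), and 4 of 5 were lower at an unadjusted p under 0.05, as were 6.57% of the genes tested. EdgeR and limma voom on the recovered reads also called 0 of 5, and DESeq2 called 4. The authors' deposited table, whose columns are named as DESeq2 names them, calls the same 4 genes lower, all but Herc6, and 2.59% of its 14637 genes. All 5 differences were negative (50.7% of the genes tested), 4 were at -1 or lower (5.34%) and 4 at -1.5 or lower (2.45%). No ISG15 gene was higher in SON by any of these rules, which called 0.0327% (limma adjusted), 5.99% (limma unadjusted), 1.48% (the authors' deposited table) and 22.2% (separated libraries) of all genes higher.

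Isg15, the modifier itself (ENSMUSG00000035692, chromosome 4, 156199424 to 156200818, minus strand, GRCm38), measured 5450 and 3355 in GFP control I and II, against 1494 and 576 in SON I and II. The lower GFP control library was thus still above the higher SON library, and the SON libraries lay further apart from each other than the GFP control libraries did. The group means were 4402 ± 1481 and 1035 ± 650 (SD, n = 2 each), so the SON mean was 23.5% of the control mean. The log2 difference was -2.20 ± 0.50 (SE, limma adjusted p = 0.263), and 134 of the genes tested had a lower one. The authors' deposited table gives a log2 fold change of -1.86 for Isg15 with an adjusted p of 6.33e-04. The difference depended on the SON library used: it was -1.52 without SON II and -2.89 without SON I. A stretch of 482 bases of Isg15 is 95.2% identical to the gene model AC151275.1, which was not analysed here.

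Uba7, the E1 (ENSMUSG00000032596, chromosome 9, 107975505 to 107984060, plus strand), measured 971 and 650 in the GFP control, against 251 and 223 in SON. Here the SON libraries were close together and both lay below the lower GFP control library. The means were 810 ± 226 and 237 ± 19.5, the SON mean 29.3% of the control mean, and the log2 difference was -1.74 ± 0.25 (limma adjusted p = 0.230). The authors' deposited table gives -1.67 for Uba7 with an adjusted p of 7.69e-06. Uba7 shares 233 exon bases with the gene model Gm20661 on the same strand, which had at most 7 reads in any library.

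Ube2l6, the E2 (ENSMUSG00000027078, chromosome 2, 84798828 to 84810335, plus strand), measured 1690 and 1315 in the GFP control, against 500 and 541 in SON. It was the 1 gene of the 5 that was not higher in SON I than in SON II, and it had the smallest unadjusted p of the 5 (3.61e-04, limma). The means were 1503 ± 266 and 520 ± 28.4, the SON mean 34.6% of the control mean, and the log2 difference was -1.52 ± 0.18 (limma adjusted p = 0.212). The authors' deposited table gives -1.47 for Ube2l6 with an adjusted p of 2.92e-06. A stretch of 508 bases of Ube2l6 is 95.1% identical to the gene model Gm17167 (chromosome 4, 42206998 to 42235313), and the treatment of reads that match both was not given in the sources used here. Gm17167 measured 166 and 151 in the GFP control, against 54.5 and 98.4 in SON, and the sum of Ube2l6 and Gm17167 had a log2 difference of -1.47. A further 260 bases are 96.5% identical to Ift46, a gene of cilia. Ift46 measured 2417 and 2416 in the GFP control, against 1759 and 1977 in SON. The sum of Ube2l6 and Ift46 had a log2 difference of -0.71. This sum takes in reads from all 6416 exon bases of Ift46, so it cannot show how reads of the 260 bases were placed.

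Herc6, the E3 (ENSMUSG00000029798, chromosome 6, 57581000 to 57664632, plus strand), measured 788 and 533 in the GFP control, against 464 and 238 in SON. SON I came close to GFP control II, and only SON II lay well below both. The means were 661 ± 181 and 351 ± 160, the SON mean 53.1% of the control mean, and the log2 difference was -0.96 ± 0.38 (limma adjusted p = 0.404, unadjusted p = 0.0521). Herc6 is also the gene of the 5 that the authors' deposited table does not call, with a log2 fold change of -0.83 and an adjusted p of 0.280. Without SON II the difference was -0.48, and without SON I it was -1.44. Herc6 shares 1269 exon bases with the gene model Gm45193, which was not analysed here.

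Usp18, the ISG15 protease (ENSMUSG00000030107, chromosome 6, 121245906 to 121270917, plus strand), measured 3216 and 2125 in the GFP control, against 1164 and 502 in SON. As for Isg15, the groups were apart and SON II was the lowest library by a wide margin. The means were 2670 ± 771 and 833 ± 468, the SON mean 31.2% of the control mean, and the log2 difference was -1.77 ± 0.44 (limma adjusted p = 0.270). The authors' deposited table gives -1.52 for Usp18 with an adjusted p of 0.00570. Without SON II the difference was -1.17, and without SON I it was -2.38. Usp18 shares 124 exon bases with the opposite-strand gene model Gm44148, and reads of the 2 genes cannot be told apart with a kit that does not mark strand.

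**Figure D1:**
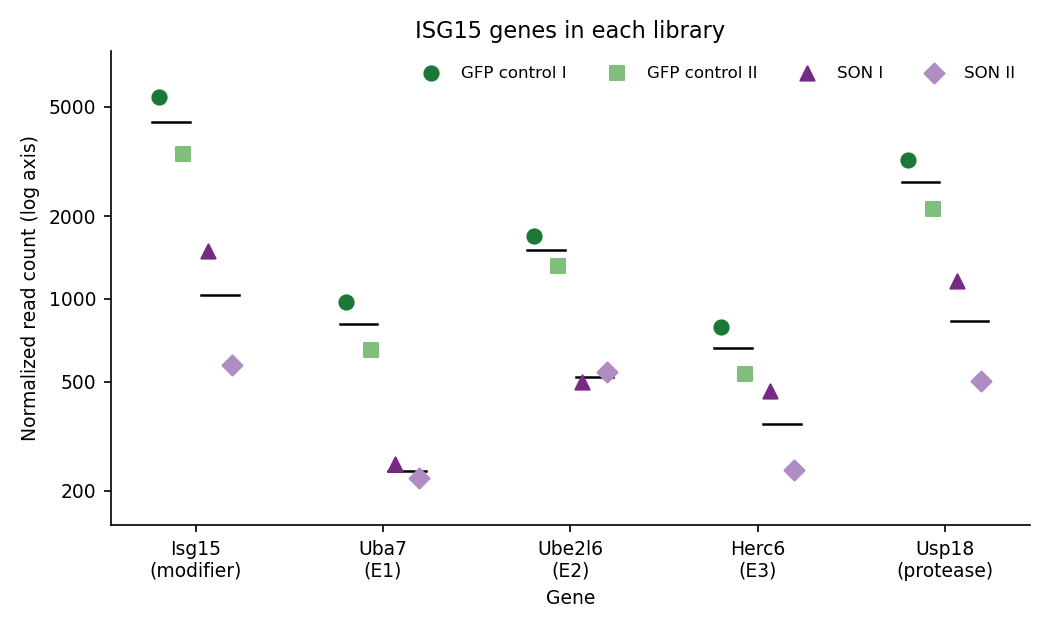
Normalized read count (log axis) of the 5 ISG15 genes in each of the 4 libraries, with a bar at the mean of each group. All SON points lie below all GFP control points of the same gene, closest for Herc6 (464 in SON I against 533 in GFP control II), and the SON points nearly coincide for Uba7 and Ube2l6.

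The GFP control libraries differed for all 5 genes, and the size of every difference rested partly on which of them was used. GFP control I was above GFP control II by 0.36 to 0.70 on the log2 scale, with a median of 0.58 against 0.01 over all genes tested. The ratio of GFP control I to II was 1.62 for Isg15 (exact 95% interval 1.57 to 1.68) and 1.29 for Ube2l6 (1.21 to 1.37), where intervals cover counting error only. Of all genes tested, 9.81% had GFP control I above II by 0.5 or more. Without GFP control I the median of the 5 genes was -1.45 in limma. DESeq2 then gave -1.70 for Isg15, -1.35 for Ube2l6, -1.46 for Uba7, -1.36 for Usp18 and -0.61 for Herc6. Without GFP control II the median was -2.03, and DESeq2 gave -2.39, -1.70, -2.03, -1.94 and -1.16 in the same order.

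Within SON the 5 genes followed different patterns. Isg15, Usp18 and Herc6 were higher in SON I than in SON II, with ratios of 2.60 (exact 95% interval 2.31 to 2.92), 2.32 (2.04 to 2.64) and 1.95 (1.61 to 2.36). For Uba7 the ratio was 1.12 (0.902 to 1.40) and for Ube2l6 it was 0.926 (0.799 to 1.07), and both intervals include equality. On the log2 scale the difference of SON I minus SON II was 1.37, 1.21 and 0.96 for Isg15, Usp18 and Herc6, and 7.52% of the genes tested reached 0.9. It was 0.17 for Uba7 and -0.11 for Ube2l6. The modifier, its protease and its ligase thus parted from the E1 and the E2 between the SON libraries, with 1 library on each side and no test.

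Interferon-stimulated genes outside this pathway gave a scale for these values. Of 42 listed, all 42 were tested and all 42 had a negative log2 difference (50.7% of the genes tested). Their median was -1.70, close to that of the 5 ISG15 genes. Limma called 0 of 42 over all genes, where 0.0196% of the genes tested were called lower. At an unadjusted p under 0.05, 37 were lower (6.57% of the genes tested). Of the 42, 32 are called lower in the authors' deposited table, as are 2.59% of its genes. The largest differences in the list were those of Oas1g, of the oligoadenylate synthetase family (-3.34), Ifi27l2a (-2.92), Cxcl10, a chemokine for T cells (-2.69), and Trim30a (-2.67). Isg15 lay among the lower ones, with 8 of 42 at or below it, whereas 33 of 42 were at or below Herc6. In SON I minus SON II the list had a median of 0.45 and reached from -0.34 to 1.18, so Isg15 and Usp18 lay above all 42. Uba7 and Ube2l6 lay toward the other end, with 38 and 39 of 42 at or above them.

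**Figure D2:**
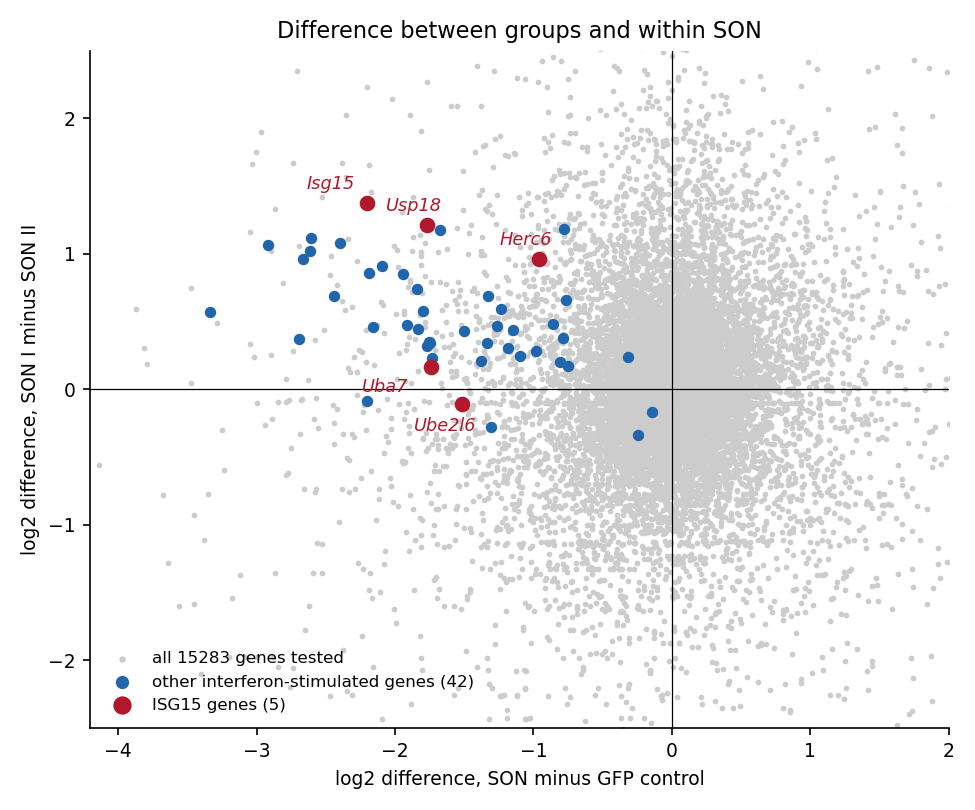
Each point is a gene, with its log2 difference between groups on the x axis and between SON I and SON II on the y axis, for the 5 ISG15 genes (red), 42 other interferon-stimulated genes (blue) and all genes tested (grey, 211 of them outside the axes). Isg15 and Usp18 sit above every blue point, at 1.37 and 1.21, and Ube2l6 sits below the zero line at -0.11.

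Levels between genes were compared per kb of exon. In the GFP control the order was Isg15 (5823 ± 1959 normalized counts per kb), Usp18 (957 ± 276), Ube2l6 (753 ± 133), Uba7 (121 ± 33.8) and Herc6 (71.1 ± 19.5). The substrate of the cascade was therefore by far the most abundant transcript, and the neighbours Usp18 and Ube2l6 did not differ beyond their spread. In SON the levels per kb were 1369 ± 859 for Isg15, 299 ± 168 for Usp18, 261 ± 14.2 for Ube2l6, 37.8 ± 17.2 for Herc6 and 35.4 ± 2.92 for Uba7. The order of Uba7 and Herc6 in SON was within their spread, and it turned when the length of the longest coding transcript was used in place of all exons (74.2 for Uba7 and 73.6 for Herc6).

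The proportions between the 5 genes differed from library to library. The level per kb of Ube2l6 was 11.7% and 14.8% of that of Isg15 in the GFP control libraries, 12.7% in SON I and 35.6% in SON II. Uba7 stood at 2.01% and 2.19% of Isg15 in the GFP control, 1.90% in SON I and 4.38% in SON II. For both enzymes SON I looked like the GFP control and SON II alone stood apart. Usp18 kept the narrowest range, from 16.0% and 17.2% of Isg15 in the GFP control to 21.1% and 23.6% in SON. Herc6 went from 1.18% and 1.29% in the GFP control to 2.52% and 3.36% in SON. For Usp18 and for Herc6, both SON libraries were thus above both controls in this proportion.

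**Figure D3:**
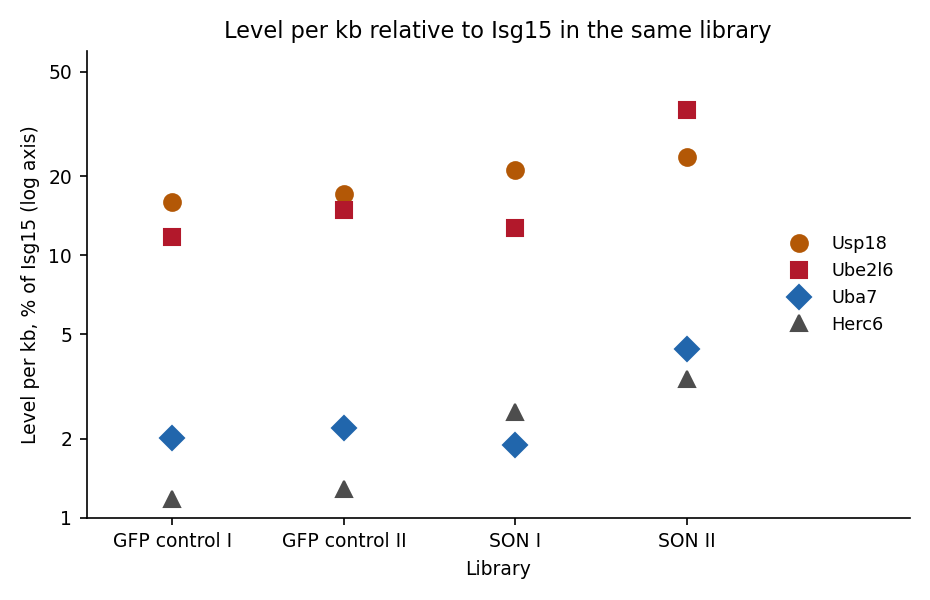
Level per kb of Usp18, Ube2l6, Uba7 and Herc6 as a percentage of that of Isg15 in the same library (log axis), with 1 point per gene and library. Ube2l6 and Uba7 are near their control proportion in SON I and higher in SON II (35.6% and 4.38%), and Usp18 and Herc6 are higher in both SON libraries.

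The nearest relatives of the 5 genes in the ubiquitin system had smaller differences. Uba1, the E1 of ubiquitin, measured 13183 ± 647 in the GFP control and 14939 ± 648 in SON (log2 0.18 ± 0.16, limma adjusted p = 0.703). Per kb, Uba7 stood at 5.49% and 3.43% of Uba1 in the GFP control and at 1.25% and 1.04% in SON. Ube2l3, the ubiquitin E2 closest to Ube2l6, measured 1650 ± 110 and 1584 ± 148 (log2 -0.06 ± 0.15, limma adjusted p = 0.907). Ube2l6 stood per kb at 315% and 223% of Ube2l3 in the GFP control and at 99.0% and 93.6% in SON. With the length of the longest coding transcript these values were 208% and 147%, and 65.4% and 61.8%. Herc3 and Herc4, small HERC ligases like Herc6, had log2 differences of 0.07 ± 0.19 and 0.03 ± 0.14, and the giant ligases Herc1 and Herc2 of 0.29 ± 0.18 and 0.42 ± 0.15. These proportions show unequal differences within the libraries, and the difference between relatives was not tested.

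Across each class of the ubiquitin system limma called 0 genes over all genes tested, and the authors' deposited table also calls 0. Of 8 other E1 enzymes 5 had positive and 3 negative differences, with a median of 0.12. The largest were those of Uba6 (0.53), the E1 that also activates the ubiquitin-like protein FAT10, Uba3 (-0.34), Atg7 (0.28) and Sae1 (0.20). Uba6 measured 1528 and 1575 in the GFP control, against 3068 and 1638 in SON, so its value rested on SON I. The 32 other E2 enzymes had a median of -0.07, with 1 lower at an unadjusted p under 0.05 (Ube2r2), and reached from -0.48 for Ube2v1 to 0.53 for Ube2c. Ube2c, an E2 of mitosis, measured 434 and 685 in the GFP control, against 1455 and 425 in SON, so its value rested on SON I. Of 44 tested USP proteases other than Usp18, 23 were positive and 21 negative with a median of 0.01, and Usp24 and Usp30 were higher at an unadjusted p under 0.05. Other modifiers (15 tested, median -0.11) had Sumo2 at the upper end (0.13). Ubd, which encodes FAT10 and is also inducible by interferon, had too few reads to be tested, with 5.01 and 10.1 in the GFP control, against 0 and 1.47 in SON.

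**Figure D4:**
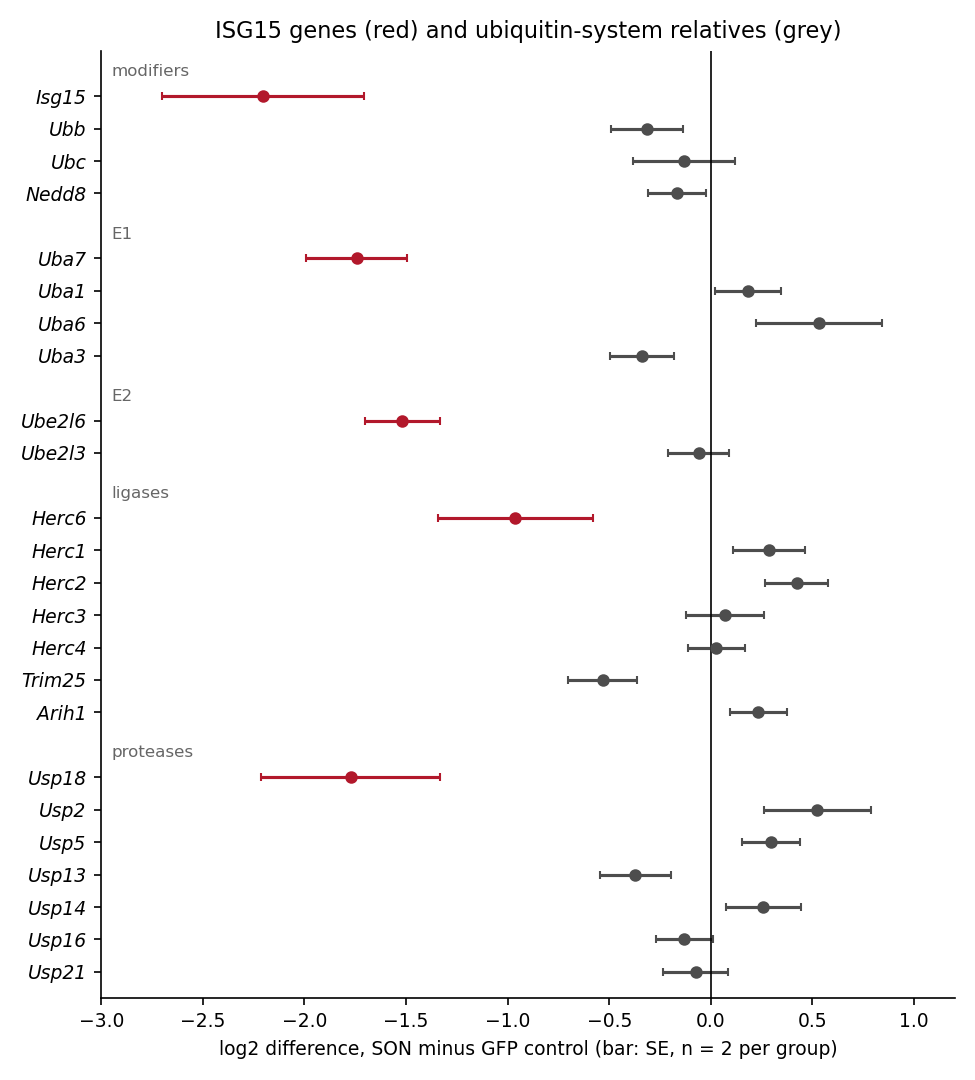
Log2 difference of SON minus GFP control for the 5 ISG15 genes (red) and relatives from the ubiquitin system (grey), grouped by class, with points at the estimate and bars for the SE (n = 2 per group). Every red point lies between -2.20 and -0.96, and the grey points lie between -0.53 (Trim25) and 0.53 (Uba6).

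Other enzymes that have been reported to join ISG15 to proteins or to remove it showed smaller values. Trim25, a ligase that also acts on the RNA sensor RIG-I and is itself inducible by interferon, measured 3970 and 3260 in the GFP control, against 2671 and 2315 in SON. Its groups were apart, with a log2 difference of -0.53 ± 0.17 (limma adjusted p = 0.332, unadjusted p = 0.0243). Arih1, a ligase that works with Ube2l3 and Ube2l6, had a log2 difference of 0.23 ± 0.14. The 6 proteases of this list had values of 0.52 for Usp2, 0.29 for Usp5, 0.26 for Usp14, -0.37 for Usp13, -0.13 for Usp16 and -0.08 for Usp21. Limma called 0 of the 8 over all genes, 1 was lower at an unadjusted p, and the authors' deposited table calls 0.

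Proteins reported to carry ISG15 had a median near that of all genes. The median of 17 substrate genes was -0.06, with 3 positive and 14 negative (50.7% of the genes tested were negative). Limma called 0 over all genes. At an unadjusted p 1 was higher and 4 were lower, against 5.99% and 6.57% of the genes tested. Among the largest differences were those of Mx1, a GTPase that blocks viruses (-2.16), and Eif2ak2, the kinase PKR (-0.75). Mx1 and Eif2ak2 are also in the list of interferon-stimulated genes. The authors' deposited table calls Mx1 lower, and substrates that interferon is not known for, such as Ube2n (-0.01) and Becn1 (-0.02), were near 0.

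Of 12 genes listed for the type I interferon receptor and its signalling, 11 had a negative log2 difference (50.7% of the genes tested). Their median was -0.63, with 0 called by limma and 6 lower at an unadjusted p (6.57% of the genes tested). Both SON libraries lay below both GFP control libraries for 7 of 12, against 23.7% of the genes tested. Jak1, Tyk2, Irf3, Socs1 and Socs3 overlapped between groups. Irf7, a transcription factor that amplifies the response, measured 4461 and 1582 in the GFP control, against 620 and 385 in SON (log2 -2.44 ± 0.53, limma adjusted p = 0.259). Stat2, to which Usp18 binds, measured 5315 and 3595, and 1951 and 1537 (log2 -1.34 ± 0.24). Irf9, its partner in the factor that binds the ISRE, had a log2 difference of -0.96 ± 0.23. In the authors' deposited table Irf7, Stat2 and Irf9 are called lower. Of the receptor chains, Ifnar2, the chain that Usp18 binds, measured 1734 and 1219, and 907 and 881 (log2 -0.70 ± 0.21), and Ifnar1 had a log2 difference of -0.55 ± 0.26, whereas the kinases Jak1 and Tyk2 were at -0.08 and 0.05. Genes of the interferons themselves were hardly read: 13 of 21 had 0 reads in every library, where a count of 0 allows up to 2.51, 1.78, 4.09 and 4.41 normalized counts in GFP control I, GFP control II, SON I and SON II. Ifnb1 had 4 and 3 reads in the GFP control, against 1 and 1 in SON, and no gene of the 21 had enough reads to be tested.

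Over the 4 libraries the genes closest to the mean pattern of the 5 ISG15 genes were Medag, Clec2d, Oas1b, Il6, Tnfaip6 and Xaf1, taken from 10436 genes with a mean of at least 100 normalized counts. Likeness was the Euclidean distance between values on the log2 scale after the mean of each gene was removed, and it ran from 0.0979 for Medag to 0.258 for Xaf1. The ISG15 genes themselves lay 0.37 (Usp18) to 0.74 (Isg15) from their own mean. Medag, a gene of fat cell differentiation, measured 1159 and 793 in the GFP control, against 371 and 247 in SON. Il6, a cytokine of inflammation, measured 3695 and 2079, and 1212 and 752. Of the 6, Xaf1 is in the list of interferon-stimulated genes above, and Oas1b belongs to the same family as Oas1g.

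Markers of cell types differed as well. The 10 tested macrophage markers all had negative log2 differences (50.7% of the genes tested), with a median of -0.72. Limma called 0 of them over all genes, and 1 was lower at an unadjusted p (6.57% of the genes tested). For 4 of the 10, both SON libraries lay below both GFP control libraries, against 23.7% of the genes tested. In SON I minus SON II the 10 markers had a median of -1.75. Leaving out SON I moved the median difference to -0.15, and leaving out SON II moved it to -1.47. The authors' deposited table calls 0 of these markers. It gives positive log2 fold changes for Cd68 (0.26), Laptm5 (0.23) and Ptprc (0.03) and negative ones for the others. Their summed level in SON II (1316) was thus near that of the GFP control (1460 and 1533), while Isg15, Usp18, Herc6 and Uba7 were lowest in SON II. Ube2l6 was lowest in SON I (500, against 541 in SON II), the library with the lowest macrophage sum. The defining macrophage gene Adgre1 was low throughout and measured 10.9 and 22.6 in the GFP control, against 0 and 14.7 in SON. In SON I, Adgre1, Tyrobp and Fcer1g had 0 reads. Of 12 fibroblast markers 8 were negative and 4 positive with a median of -0.59, led by Dcn (-2.59) and Pdgfra (-1.78). Limma called 0 of the 12 over all genes, and 4 were lower and 0 higher at an unadjusted p (6.57% and 5.99% of the genes tested). The authors' deposited table calls 3 of the 12 lower and 0 higher, against 2.59% and 1.48% of its genes. The summed level of the 12 was 819840 and 474864 in the GFP control, against 489018 and 421776 in SON. Endothelial markers, of which 4 of 6 were tested, had sums of 119 and 174 in the GFP control, against 249.5 and 226 in SON. Of these, Kdr (1.34) and Tek (1.12) were higher at an unadjusted p under 0.05 in limma, with 0 of 4 called over all genes, and Pecam1 (-0.08) and Emcn (-0.53) overlapped between groups. The part of cell makeup in the values of the ISG15 genes was not tested, and in bulk RNA fewer cells of a type and less RNA per cell cannot be told apart.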

How the data were processed

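Messenger RNA libraries of 4 MEF samples (2 GFP control, 2 SON, grouped and numbered by their titles) were made with the TruSeq mRNA kit v2, per the labels' protocols, a kit that does not mark strand. The submitters' processing notes name STAR 2.4.0j, TopHat2 2.0.11, CASAVA 1.8.1, DESeq2, HTSeq 0.5.3p3, Subread and featureCounts, and the build GRCm38 (mm10); which tool made which table was not given in the sources used here. The deposited signal values are reads divided by 1 size factor per library by the authors: 100% of the values were whole multiples of 1 step per library (tolerance 0.01 reads). The deposited comparison columns of the authors, named as in DESeq2 (mean signal, log2 fold change and its SE, Wald score, p-value) were used, apart from the score, as the authors' own comparison or to check the means. The repeat table was not used here.

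The main test was limma 3.58.1 (R 4.3.3) on log2(value + 1) (two-sided, variance trend on the mean level), adjusted by Benjamini-Hochberg over 15283 genes kept by filterByExpr of edgeR 4.0.16. It was tested on simulated data. Alternatives were run on the recovered reads with edgeR (5 genes higher and 3 lower), DESeq2 1.42.0 and voom, with other pseudocounts, filters and scalings, and with each library left out. Gene names blank in the table, positions, exon lengths and overlaps came from GENCODE M21 (GRCm38). Near copies were sought with blastn 2.17.0 (at least 95% identity over 200 bases).

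The genes and lists were chosen with earlier results of these data known, so lists are described by counts and medians without a set test. Count tests were alternatives, since the files hold normalized values. Named were the 5 genes, their ubiquitin-system relatives, Trim25, Arih1, the delivered genes, the 4 largest differences per list and the 6 nearest patterns; other genes were named after their values had been seen. Some genes that the rule names are not reported here.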

Additional observations from a re-analysis of the deposited data

How the results depend on the processing

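All 5 ISG15 genes had a negative log2 difference under every alternative run. None of the 5 passed an adjusted p of 0.05 in limma under other pseudocounts, filters and scalings or with any 1 library left out, nor in edgeR or voom. DESeq2 was the setting that called members: Isg15 at -2.09, Usp18 at -1.68, Uba7 at -1.77 and Ube2l6 at -1.53, with Herc6 at -0.91 not called (DESeq2 adjusted p = 0.278). With 1 library left out in limma the differences ran from -2.89 to -1.52 for Isg15, -2.38 to -1.17 for Usp18, -1.44 to -0.48 for Herc6, -2.03 to -1.45 for Uba7 and -1.70 to -1.34 for Ube2l6. DESeq2 with 1 library left out, an alternative chosen after seeing the data, gave -2.94 to -1.56, -2.42 to -1.20, -1.48 to -0.52, -2.03 to -1.46 and -1.70 to -1.35 in the same order; -2.39 for Isg15 and -1.94 for Usp18 without GFP control II, -1.86 for Uba7 without SON I and -1.59 for Ube2l6 without SON II lay between; it called none of the 5 without GFP control I and Herc6 only without SON I (-1.48, DESeq2 adjusted p = 0.0112). Over all genes, limma called 5 higher and 3 lower; a pseudocount of 0.1 gave 3 higher, voom 3 higher and 1 lower, and DESeq2 218 higher and 381 lower. With 1 library left out limma called 0 to 9 higher and 0 to 28 lower, and DESeq2 17, 140, 143 and 306 higher and 33, 315, 307 and 329 lower (without GFP control I, GFP control II, SON I and SON II). The cause of the gap between limma and DESeq2 was not tested. The numerals I and II are only numbers in the labels. With them as a replicate block, limma called 4 higher and 7 lower and none of the 5 ISG15 genes, with adjusted p from 0.0843 to 0.154; libraries with the same number deviated together from their group means (r = 0.218 across 15283 genes, which are not replicates). The smallest count of an ISG15 gene was 152 reads, and 2 libraries per group limit the precision.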
